A study of Homo sapiens with 24 samples.

Results

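Annexins and S100 proteins were followed as 10 genes of the 58735 in the deposited count table: the annexins ANXA1, ANXA2, ANXA4, ANXA5, ANXA6, ANXA7 and ANXA11, and the S100 genes S100A4, S100A10 and S100A11. They were taken by gene name, and the names were chosen by someone who already knew their levels across the groups, so the levels and changes of the 10 genes are given as a description and not as independent evidence. No numerical threshold was recorded for that choice.

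Bulk RNA sequencing covered 24 libraries from SU-DHL-4 and OCI-Ly18, both human diffuse large B cell lymphoma lines that carried GFP. The 8 groups of 3 libraries were, in each line, tazemetostat with CART19 cells, DMSO with CART19 cells, tazemetostat with UTD cells, and DMSO with UTD cells. Tazemetostat inhibits EZH2, the methyltransferase that places the repressive mark on lysine 27 of histone H3; it was given at 500 nM for 72 h beforehand and stayed on during the 48 h of culture with the T cells, and the solvent DMSO was handled alike. CART19 cells are T cells that carry a chimeric antigen receptor, and UTD names the other cells used, an abbreviation that the labels do not spell out. After the co-culture only viable GFP-positive cells were sorted for RNA. Both lines are established cultures and stand for 1 lymphoma each, and nothing states that the 3 libraries of a group came from separate cultures, so the p-values measure the spread between these libraries, which may be technical.

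Annexins are proteins that bind the acidic phospholipids of membranes, chiefly phosphatidylserine, when calcium is present. Most S100 proteins are small calcium-binding proteins that change shape with calcium and then grip a target, and several of them grip the tail of an annexin. S100A11 binds ANXA1 and ANXA2, and S100A10, which has lost calcium binding and needs none, holds ANXA2 in a complex at the plasma membrane. Together they take part in membrane repair, vesicle traffic and exocytosis, and S100A4 binds non-muscle myosin and is known from cell motility. In B cells the set of annexins and S100 genes in use differs between stages and between lymphomas.

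The libraries held 14783781 to 20148891 counts. The B cell markers MS4A1 and CD79A were abundant in every group, with 23425 to 101923 counts of MS4A1 and 8804 to 31734 counts of CD79A over the 3 libraries of a group. Levels are given in CPM, a gene's counts scaled to a library total of 1000000. T cell markers were examined because sorted tumour cells can carry T cells along. The 16 markers summed to 27.4 to 28.1, 43.9 to 46, 30 to 31.7 and 44.6 to 45.4 CPM in SU-DHL-4 (tazemetostat with CART19, DMSO with CART19, tazemetostat with UTD, DMSO with UTD), chiefly TRAC. In OCI-Ly18 they summed to 199 to 208, 157 to 173, 337 to 353 and 257 to 271 CPM in that order, chiefly IL7R and TRBC2. IL7R and TRBC2 had 8037 and 3477 counts there with DMSO and UTD cells, where CD3D, CD3G, CD2 and CD7 had 0. Sums led by such genes cannot register a few T cells, so they do not measure carry-over. CD3D, CD3G and CD2 had at most 7 counts each in a library, while CD3E had 25 to 75 counts in each library of SU-DHL-4, the highest count in a DMSO library with UTD cells, and 0 to 5 in OCI-Ly18. CD7 had 0 counts in all libraries, and IFNG and GZMB together had 22 to 66 counts in tazemetostat and CART19 libraries of SU-DHL-4, 7 to 23 in DMSO and CART19 libraries, 0 to 5 with tazemetostat and UTD, and 0 with DMSO and UTD. In OCI-Ly18 the same pair had 23 to 44, 19 to 22, 0 and 0 counts in those groups. In bulk RNA, fewer cells that carry a transcript and less of it per cell cannot be told apart.

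The lines used different sets of these genes. In SU-DHL-4, ANXA2, S100A10 and S100A11 were at or close to 0 and ANXA6 was the most abundant member, while OCI-Ly18 had abundant ANXA2, S100A10 and S100A11 and little ANXA6 and S100A4. ANXA5, ANXA7 and ANXA11 were well expressed in both. The sequences around the transcription start are shown for the partners ANXA2 and S100A10, which were at 0 together in untreated SU-DHL-4, and for S100A4, ANXA4 and ANXA6, which had the largest changes with tazemetostat. Each runs from 250 bases before the start to 50 after it, 5′ to 3′ on the gene's strand, from RefSeq on GRCh38.p14, with each CpG dinucleotide, the site of DNA methylation, in capitals.
ANXA2, chr15:60397937-60398236, minus strand: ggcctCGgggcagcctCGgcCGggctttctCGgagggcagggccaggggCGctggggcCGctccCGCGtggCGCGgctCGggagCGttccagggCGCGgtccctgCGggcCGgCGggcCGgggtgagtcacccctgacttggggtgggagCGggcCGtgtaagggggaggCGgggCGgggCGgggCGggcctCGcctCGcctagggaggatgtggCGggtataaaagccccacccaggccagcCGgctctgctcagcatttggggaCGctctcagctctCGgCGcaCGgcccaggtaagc
S100A10, chr1:151993810-151994109, minus strand: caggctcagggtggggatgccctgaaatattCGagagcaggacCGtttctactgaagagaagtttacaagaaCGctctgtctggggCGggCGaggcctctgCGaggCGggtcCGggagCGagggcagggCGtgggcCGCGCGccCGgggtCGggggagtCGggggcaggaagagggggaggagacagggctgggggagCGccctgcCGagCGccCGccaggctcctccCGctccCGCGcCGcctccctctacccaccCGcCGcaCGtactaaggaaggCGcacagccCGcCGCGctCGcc
S100A4, chr1:153545757-153546056, minus strand: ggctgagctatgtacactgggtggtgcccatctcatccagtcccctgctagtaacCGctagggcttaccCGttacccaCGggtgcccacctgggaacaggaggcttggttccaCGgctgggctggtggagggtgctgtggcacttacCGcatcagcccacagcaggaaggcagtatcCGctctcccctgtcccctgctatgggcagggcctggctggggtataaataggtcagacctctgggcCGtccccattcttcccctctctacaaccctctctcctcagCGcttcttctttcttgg
ANXA4, chr2:69643558-69643857, plus strand: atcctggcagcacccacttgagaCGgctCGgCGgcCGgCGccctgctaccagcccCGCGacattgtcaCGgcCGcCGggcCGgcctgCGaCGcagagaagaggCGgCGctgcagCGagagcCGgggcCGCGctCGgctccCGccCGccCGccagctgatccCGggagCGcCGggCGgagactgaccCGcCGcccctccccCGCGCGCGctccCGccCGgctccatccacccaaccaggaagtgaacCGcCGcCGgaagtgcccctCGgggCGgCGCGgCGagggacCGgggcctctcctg
ANXA6, chr5:151157730-151158029, minus strand: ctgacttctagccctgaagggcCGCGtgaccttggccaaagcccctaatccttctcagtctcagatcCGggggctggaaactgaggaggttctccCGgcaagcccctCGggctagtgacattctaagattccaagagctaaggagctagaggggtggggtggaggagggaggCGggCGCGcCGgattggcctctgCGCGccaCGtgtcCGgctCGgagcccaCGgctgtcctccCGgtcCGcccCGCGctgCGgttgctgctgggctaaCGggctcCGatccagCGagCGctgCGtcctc

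All 10 members had such a 300-base sequence. The number of CpG dinucleotides in it was 44 in ANXA4, 36 in ANXA5, 32 in ANXA2, 32 in S100A10, 25 in ANXA6, 23 in ANXA7, 22 in S100A11, 12 in ANXA11, 8 in S100A4 and 0 in ANXA1. Over the 35116 such sequences in the table the median was 14, with quartiles of 4 and 28, so 7 of the 10 members lay above the median. Of S100A4, ANXA4 and ANXA6, which had the largest changes with tazemetostat, only S100A4 lay under the median. ANXA11, with smaller called falls in SU-DHL-4, lay under it too. ANXA2 and S100A10, at 0 in untreated SU-DHL-4, were each richer in CpG than 81.1% of all starts. The letters TATAAA, the TATA box, were present on either strand in ANXA1, ANXA2, ANXA11 and S100A4 and in 11.5% of all starts. TTCNNNGAA, the gamma interferon activated site, which reads the same on both strands, was present in ANXA1 alone among the members and in 7.66% of all starts. A match is a run of letters and not a shown binding site, and neither DNA methylation nor histone marks were measured.

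**Figure D1:**
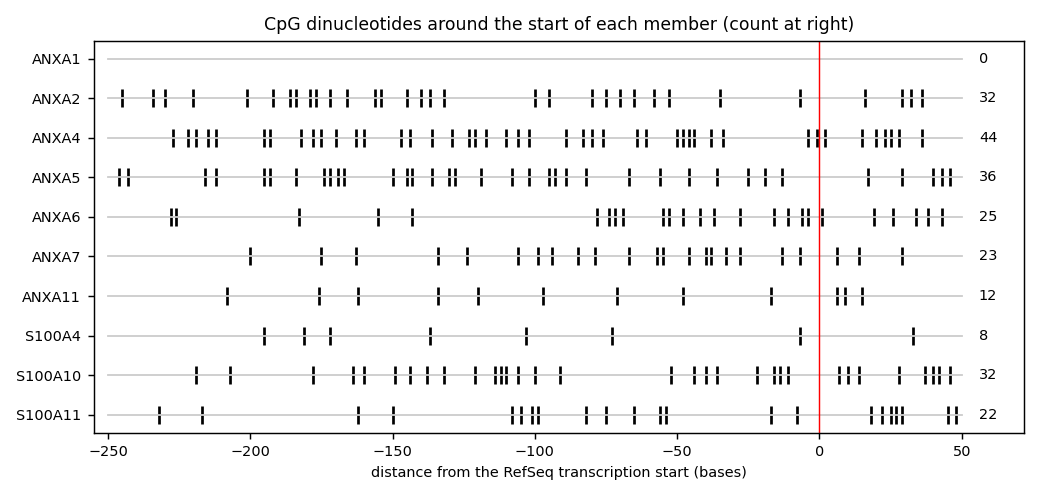
Position of each CpG dinucleotide (tick) from 250 bases before to 50 bases after the RefSeq transcription start of the 10 members, with the start as a red line and the count at the right. ANXA4 has the most, 44, while S100A4 has 8 and ANXA1 has 0.

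Differences between the lines were read first in the baseline groups, DMSO with UTD cells, on counts tested with edgeR's quasi-likelihood F-test and Benjamini-Hochberg adjustment over all genes tested, calling adjusted p-values under 0.05; every adjusted p given for a gene comes from this test. A log2 fold change is given with its standard error. Of the 9 members tested, 4 were higher and 5 lower in SU-DHL-4 than in OCI-Ly18, where 64.8% of all 17766 genes tested were called. The members were chosen with these levels known, so that count is a description. ANXA1 did not pass the filter on low counts. The members' median absolute log2 difference was 4.22, beside 0.71 over all genes tested; it is the value of S100A4 and stays so with ANXA2 and S100A10 set at the bounds given next.

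ANXA2, whose protein forms a complex with S100A10, had 0, 0 and 0 counts in the baseline libraries of SU-DHL-4, against 1203, 1094 and 1324 counts in OCI-Ly18. With 3 counts over the group as the limit that 0 counts allow, ANXA2 was at least 1250-fold lower in SU-DHL-4. Its partner S100A10 had 0, 0 and 0 counts in SU-DHL-4, against 875, 804 and 840 in OCI-Ly18, and was at least 868-fold lower. Both partners were thus below the detection limit in the same line. S100A11 had 0, 2 and 0 counts in SU-DHL-4, against 184, 181 and 194 in OCI-Ly18, a ratio of OCI-Ly18 over SU-DHL-4 of 289 with a 95% counting interval of 79.6 to 2390. These limits cover counting error only. The adjusted p-values were 4.2e-34 for ANXA2, 9.54e-29 for S100A10 and 2.67e-20 for S100A11. These genes were chosen with their levels known. They entered the joint fit through their counts in OCI-Ly18 and were not tested in the fit of SU-DHL-4 alone. The p-values are therefore no independent evidence of a line difference, and the counts stand as a description.

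The silence of the 3 genes in SU-DHL-4 did not extend to all neighbours. The lowest coordinates of S100A10 and S100A11 lie 49.6 kb apart on chromosome 1. THEM4, on the S100A10 side, averaged 3.83 CPM in SU-DHL-4 and 18 CPM in OCI-Ly18 at baseline, whereas TCHHL1, on the S100A11 side, had 0 in both. ICE2, with its lowest coordinate 72.5 kb from that of ANXA2 on chromosome 15, averaged 68.1 CPM in SU-DHL-4 and 103 CPM in OCI-Ly18. Reads of near-identical copies may be shared: the processed pseudogene ANXA2P2 had 1 count in SU-DHL-4 and 817 in OCI-Ly18 over all libraries, against 20 and 15670 for ANXA2 itself, and S100A11P1 had 0 in SU-DHL-4 and 16 in OCI-Ly18. AL450992.1, antisense to S100A11, had 0 counts in SU-DHL-4 and 54 in OCI-Ly18, and reads of both strands cannot be told apart here because no strand setting is given.

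Across the 12 libraries of SU-DHL-4, ANXA2 stayed between 0 and 7 counts. It had 7, 4 and 1 counts with tazemetostat and CART19 cells and 0, 2 and 0 with DMSO and CART19 cells. It had 4, 0 and 2 counts with tazemetostat and UTD cells and 0, 0 and 0 with DMSO and UTD cells. Most of these few counts were thus in tazemetostat libraries, and the drug groups overlapped in both settings. S100A10 had 4 counts in replicate 1 of tazemetostat with CART19 cells and 0 in the other 11 libraries. That same library, which held 15 counts of IFNG and 3 of CD2, also had the highest ANXA2 count of the line. Replicates 2 and 3 of that group held 47 and 15 counts of IFNG and 0 of CD2 each. The part of carried-over T cells in these counts was not tested. S100A11 never exceeded 3 counts in a library of SU-DHL-4.

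In OCI-Ly18 the partners stayed within a narrow range. ANXA2 averaged 75 ± 3.01 CPM with tazemetostat and CART19 cells and 83.3 ± 1.63 CPM with DMSO and CART19 cells (SD, n = 3 each). It averaged 71.3 ± 2.27 CPM with tazemetostat and UTD cells and 75.2 ± 1.47 CPM with DMSO and UTD cells. The order of the group means put DMSO with CART19 cells highest, apart from the next group, whereas the other 3 groups overlapped with their neighbours. S100A10 averaged 54.4 ± 7.3 CPM with tazemetostat and CART19 cells and 52.2 ± 0.723 CPM with DMSO and CART19 cells. It averaged 62.4 ± 4.3 CPM with tazemetostat and UTD cells and 52.5 ± 3.8 CPM with DMSO and UTD cells. All 4 groups of S100A10 overlapped with their neighbours in the order.

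S100A11, a partner of ANXA1 and ANXA2, was called in all 4 drug and CART19 comparisons of OCI-Ly18 between pairs of groups, in opposite directions with the drug and with the CART19 cells. With CART19 cells it measured 13.2, 11.7 and 12.1 CPM under tazemetostat, against 19, 17.1 and 17.4 CPM under DMSO. In the UTD setting it measured 7.95, 6.35 and 9.56 CPM under tazemetostat, against 11.6, 12.2 and 11.1 CPM under DMSO. All tazemetostat libraries lay below their DMSO counterparts, and all CART19 libraries lay above the UTD libraries of the same drug, while tazemetostat with CART19 cells and DMSO with UTD cells overlapped. Tazemetostat lowered S100A11 with a log2 fold change of -0.56 ± 0.138 with CART19 cells (adjusted p = 0.00336) and -0.60 ± 0.149 with UTD cells (adjusted p = 0.00271). CART19 cells raised it with a log2 fold change of 0.69 ± 0.147 under tazemetostat (adjusted p = 0.00104) and 0.64 ± 0.14 under DMSO (adjusted p = 0.00163). The difference between the drug's effects with CART19 and UTD cells was 0.05 ± 0.203 (adjusted p = 0.947).

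In the group means the ratio of S100A11 to S100A10 moved with S100A11, while that of S100A10 to ANXA2 went the other way. On the scale of CPM per kb of gene length, S100A11 over S100A10 averaged 0.522 ± 0.091 with tazemetostat and CART19 cells and 0.776 ± 0.0352 with DMSO and CART19 cells (SD, n = 3 each). With UTD cells the ratio averaged 0.288 ± 0.0387 under tazemetostat and 0.504 ± 0.0242 under DMSO. S100A10 over ANXA2 averaged 4.17 ± 0.734 with tazemetostat and CART19 cells, 3.58 ± 0.071 with DMSO and CART19 cells, 5.01 ± 0.49 with tazemetostat and UTD cells and 4.0 ± 0.32 with DMSO and UTD cells. S100A10 was thus the more abundant partner per length in every group of OCI-Ly18; the deposited length counts all annotated exonic bases, 8824 for ANXA2, more than a single transcript holds, so the ratio depends on that choice. These ratios were not tested.

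ANXA1, an annexin known for its part in ending inflammation, was absent from both lines. It had 5 counts in all, each in replicate 1 of tazemetostat with CART19 cells of OCI-Ly18. That library also held 23 counts of IFNG and 0 of CD3D, CD3E, CD3G and CD2 together, while replicates 2 and 3 held 34 and 15 counts of IFNG. The other 23 libraries had 0 counts of ANXA1.

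**Figure D2:**
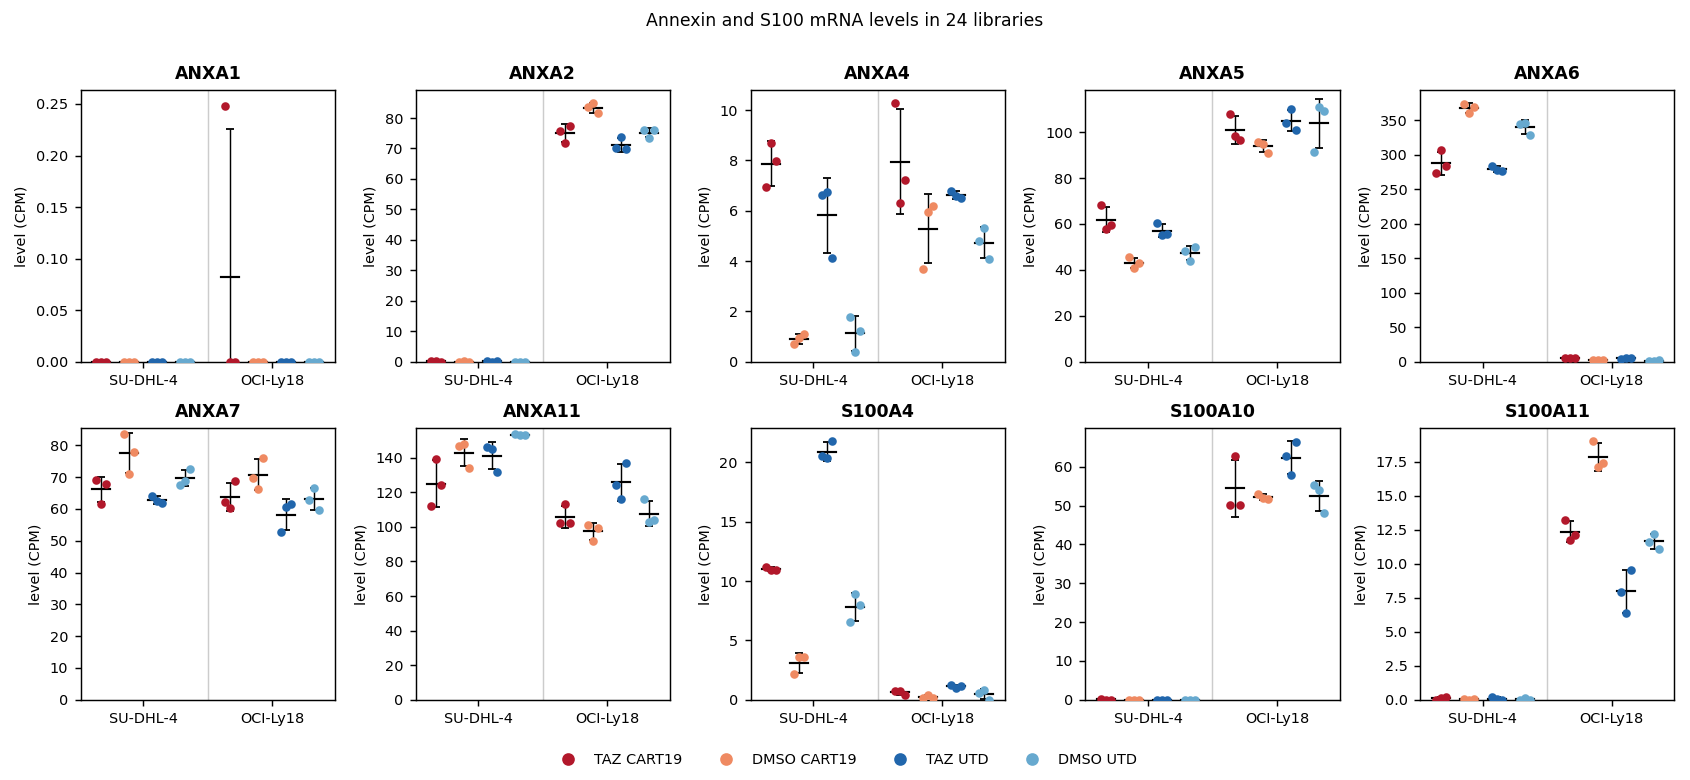
Level in CPM of the 10 members in all 24 libraries (points), with the mean (bar) and SD of 3 libraries per group, on an axis from 0 in each panel. ANXA2, S100A10 and S100A11 lie near 0 in SU-DHL-4 and at 69.8 to 84.8, 48.2 to 66.4 and 6.35 to 19 CPM in OCI-Ly18, while ANXA6 lies at 273 to 374 CPM in SU-DHL-4 and at 1.34 to 6.09 CPM in OCI-Ly18.

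The other line differences at baseline ran in both directions. ANXA6, an annexin with a duplicated core that acts at endosomes and the plasma membrane, measured 345, 346 and 328 CPM in SU-DHL-4, against 1.52, 1.34 and 1.84 CPM in OCI-Ly18, a log2 difference of 7.83 ± 0.147 (adjusted p = 1.85e-45). S100A4 measured 6.54, 8.9 and 8.01 CPM in SU-DHL-4, against 0.569, 0.806 and 0 CPM in OCI-Ly18, a log2 difference of 4.22 ± 0.42 (adjusted p = 8.67e-15). It was 4.92 without replicate 2 and 3.61 without replicate 3 of DMSO with UTD cells of OCI-Ly18. In both genes the lines did not overlap. ANXA11, which takes part in RNA granule transport and binds PDCD6, was 1.52-fold higher in SU-DHL-4 with a log2 difference of 0.60 ± 0.066 (adjusted p = 6.09e-11), and ANXA7, which takes part in secretion, 1.18-fold higher with 0.24 ± 0.0744 (adjusted p = 0.00492). ANXA7 did not pass under upper quartile scaling, at 0.10 (adjusted p = 0.268), a scaling that moved the median log2 difference of all genes to -0.24, against -0.10. ANXA4, an annexin of membrane repair and exocytosis, was lower in SU-DHL-4 with -1.95 ± 0.319 (adjusted p = 3.47e-07). ANXA5, the phosphatidylserine binder used to stain dying cells, was lower in SU-DHL-4 with -1.04 ± 0.0749 (adjusted p = 1.83e-16).

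Set on the scale of CPM per kb, the order of the members differed between the lines. The deposited length counts all annotated exonic bases, from 680 for S100A11 to 11048 for ANXA4, so the order within a line depends on that choice. In CPM, ANXA11 at 108, ANXA5 at 104 and ANXA2 at 75.2 led OCI-Ly18 at baseline. In SU-DHL-4 ANXA6 came first at 62.5, followed by ANXA7 at 24.4, ANXA11 at 18, ANXA5 at 15.6 and S100A4 at 7.63 CPM per kb. In OCI-Ly18 ANXA5 at 34.2 and S100A10 at 34.0 came first, followed by ANXA7 at 22, S100A11 at 17.1, ANXA11 at 12.6 and ANXA2 at 8.52 CPM per kb. ANXA4 was low per length in both, at 0.102 in SU-DHL-4 and 0.428 CPM per kb in OCI-Ly18.

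**Figure D3:**
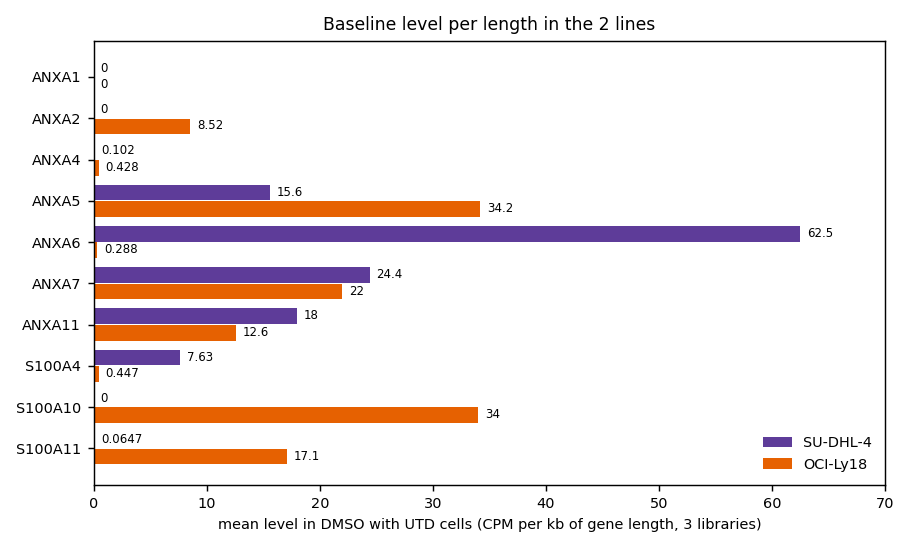
Mean level of each member in DMSO with UTD cells, in CPM per kb of the deposited gene length (3 libraries a line), with SU-DHL-4 above OCI-Ly18. ANXA6 is the longest bar of SU-DHL-4 at 62.5, and ANXA5 and S100A10 lead OCI-Ly18 at 34.2 and 34.0. The deposited length counts all annotated exonic bases, so the order of the bars within a line depends on it.

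Tazemetostat changed most members that SU-DHL-4 expressed. With CART19 cells 3 rose and 3 fell of the 6 tested, where 34.8% of all genes tested were called. With UTD cells 2 rose, 3 fell and 1 was not called, where 35.5% of all genes were called. The median log2 fold change of the 6 was 0.10 with CART19 cells and 0.00 with UTD cells, beside 0.00 and 0.01 over all genes, and their median absolute change was 0.44 and 0.29, beside 0.25 and 0.25. The members that rose were the low ones, ANXA4 and S100A4, joined by ANXA5, and the members that fell were the abundant ANXA6, ANXA7 and ANXA11.

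ANXA4 had the largest rise. With CART19 cells it measured 6.95, 8.7 and 7.98 CPM under tazemetostat, against 0.712, 0.927 and 1.09 CPM under DMSO. With UTD cells it measured 6.61, 6.74 and 4.11 CPM under tazemetostat, against 1.76, 0.396 and 1.22 CPM under DMSO. Every tazemetostat library lay above every DMSO library of SU-DHL-4, although the DMSO libraries held only 6 to 29 counts each. The rise was 8.18-fold with CART19 cells, a log2 fold change of 3.03 ± 0.329 (adjusted p = 1.2e-10), and 4.83-fold with UTD cells, 2.27 ± 0.317 (adjusted p = 6.75e-08). The difference between those effects was 0.76 ± 0.457 (adjusted p = 0.555). AAK1, which overlaps ANXA4 on the other strand, averaged 6.23 CPM under tazemetostat and 4.62 CPM under DMSO with UTD cells in SU-DHL-4, beside 5.82 and 1.12 CPM for ANXA4. In OCI-Ly18 AAK1 averaged 20.1 CPM under tazemetostat and 11.1 CPM under DMSO, a larger ratio than that of ANXA4 at 6.63 and 4.73 CPM, and the part of shared reads was not tested.

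In OCI-Ly18, where ANXA4 was already higher at baseline, the drug's effect was smaller. With CART19 cells it measured 10.3, 6.31 and 7.24 CPM under tazemetostat, against 3.7, 5.97 and 6.2 CPM under DMSO, a log2 fold change of 0.57 ± 0.211 (adjusted p = 0.0496). In the UTD setting it measured 6.8, 6.6 and 6.49 CPM under tazemetostat, against 4.81, 5.31 and 4.07 CPM under DMSO, 0.43 ± 0.219 (adjusted p = 0.16). In both settings the groups did not overlap, but the call with CART19 cells was lost in 10 of 12 fits that left out a library (adjusted p from 0.0169 to 0.351). The response with UTD cells was larger in SU-DHL-4 than in OCI-Ly18 by a log2 difference of 1.86 ± 0.402 (adjusted p = 0.000752). Under tazemetostat the level of ANXA4 reached 7.88 ± 0.88 CPM in SU-DHL-4 and 7.96 ± 2.1 CPM in OCI-Ly18 with CART19 cells (SD, n = 3 each), neighbours in the order that overlapped.

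S100A4, the myosin-binding S100 protein, was the member that moved in SU-DHL-4 with both treatments and in opposite directions. With CART19 cells it measured 11.2, 10.9 and 10.9 CPM under tazemetostat, against 2.14, 3.6 and 3.57 CPM under DMSO. With UTD cells it measured 20.5, 20.4 and 21.8 CPM under tazemetostat, against 6.54, 8.9 and 8.01 CPM under DMSO. The 4 groups did not overlap with each other anywhere in the order, from tazemetostat with UTD cells at the top to DMSO with CART19 cells at the bottom. Tazemetostat raised S100A4 3.36-fold with CART19 cells, a log2 fold change of 1.75 ± 0.182 (adjusted p = 7.53e-11), and 2.54-fold with UTD cells, 1.34 ± 0.153 (adjusted p = 1.16e-09). CART19 cells lowered it, with a log2 fold change of -0.91 ± 0.149 under tazemetostat (adjusted p = 8.14e-06) and -1.31 ± 0.186 under DMSO (adjusted p = 3.63e-07). The difference between the drug's effects with CART19 and UTD cells was 0.40 ± 0.238 (adjusted p = 0.546). T cells are known to express S100A4. IFNG and GZMB, which mark activated T cells, together had 22 to 66 counts with tazemetostat and CART19 cells and 7 to 23 with DMSO and CART19 cells. In the UTD libraries they had 0 to 5. Other T cell markers ordered the groups otherwise, over the 3 libraries of each. In tazemetostat with CART19, DMSO with CART19, tazemetostat with UTD and DMSO with UTD, CD4 had 10, 0, 16 and 0 counts. In that order CD5 had 1, 1, 13 and 0 counts and CD3G 1, 0, 10 and 0. CD3E had 158, 118, 155 and 193 counts and TRAC 996, 2006, 1223 and 1937. The part of carried-over T cells in any of these differences was not tested.

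In OCI-Ly18 S100A4 held 0 to 20 counts per library. It measured 0.744, 0.746 and 0.402 CPM with tazemetostat and CART19 cells, against 0.171, 0.387 and 0.18 CPM with DMSO and CART19 cells. It measured 1.28, 1.03 and 1.12 CPM with tazemetostat and UTD cells, against 0.569, 0.806 and 0 CPM with DMSO and UTD cells. The drug groups did not overlap, yet no difference was called at this depth: the log2 fold change was 1.31 ± 0.778 with CART19 cells (adjusted p = 0.237) and 1.28 ± 0.695 with UTD cells (adjusted p = 0.188). The value with UTD cells passed when all 24 libraries shared a fit (1.30, adjusted p = 0.0283). The line difference of the response with UTD cells was 0.06 ± 0.516, an error wide enough to hide a sizeable difference in either direction. S100A3 lies within the span of S100A4 on the same strand and had 6 counts in SU-DHL-4 and 0 in OCI-Ly18 over all libraries.

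ANXA6 moved in opposite directions in the lines. In SU-DHL-4 with CART19 cells it measured 273, 306 and 284 CPM under tazemetostat, against 374, 360 and 369 CPM under DMSO. In the UTD setting it measured 284, 278 and 276 CPM under tazemetostat, against 345, 346 and 328 CPM under DMSO. All tazemetostat libraries lay below all DMSO libraries of that line. The log2 fold change was -0.42 ± 0.046 with CART19 cells (adjusted p = 5.1e-10) and -0.36 ± 0.0461 with UTD cells (adjusted p = 2.54e-08).

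In OCI-Ly18, where ANXA6 was low, the drug raised it. With CART19 cells it measured 5.66, 5.51 and 6.09 CPM under tazemetostat, against 1.93, 1.99 and 1.92 CPM under DMSO, 2.89-fold higher with a log2 fold change of 1.53 ± 0.249 (adjusted p = 2.09e-05). With UTD cells it measured 3.85, 5.99 and 5.26 CPM under tazemetostat, against 1.52, 1.34 and 1.84 CPM under DMSO, 3.06-fold higher with 1.62 ± 0.263 (adjusted p = 1.77e-05). All tazemetostat libraries lay above all DMSO libraries of OCI-Ly18. The line difference of the response was -1.95 ± 0.173 (adjusted p = 1.79e-12). Even so, the highest OCI-Ly18 library, at 6.09 CPM, stayed far under the lowest SU-DHL-4 library, at 273 CPM.

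**Figure D4:**
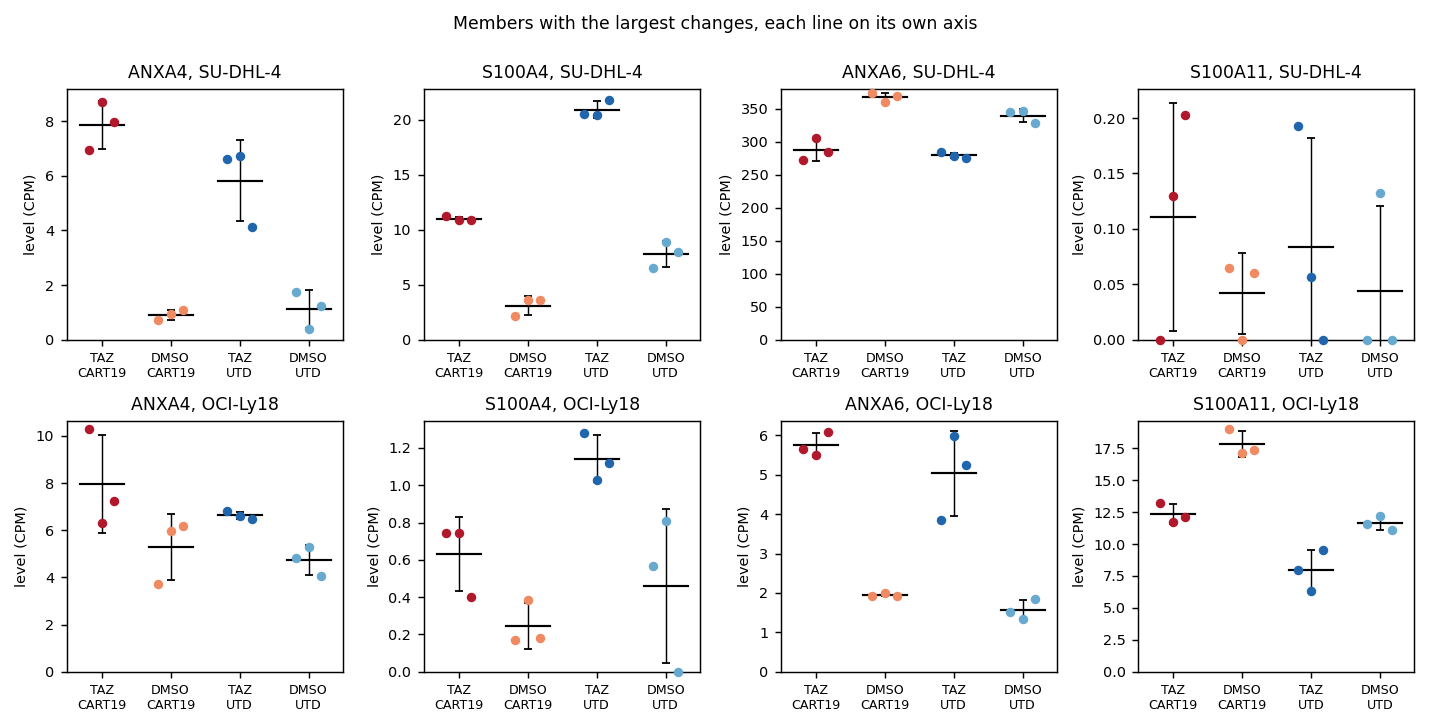
Level in CPM of ANXA4, S100A4, ANXA6 and S100A11 in SU-DHL-4 (top) and OCI-Ly18 (bottom), with 3 libraries (points), mean (bar) and SD per group and an own axis from 0 in each panel. ANXA6 is lower under tazemetostat in SU-DHL-4 and higher under tazemetostat in OCI-Ly18, and S100A4 of SU-DHL-4 forms 4 separate levels; S100A11 of SU-DHL-4 holds at most 3 counts a library.

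The broadly expressed annexins changed little. ANXA5 in SU-DHL-4 rose with tazemetostat with CART19 cells, at 68.2, 57.9 and 59.5 CPM, against 45.4, 40.9 and 42.8 CPM with DMSO, a log2 fold change of 0.46 ± 0.0793 (adjusted p = 6.58e-06). In the UTD setting it measured 60.5, 55.3 and 55.5 CPM under tazemetostat, against 48.2, 44.0 and 50.1 CPM under DMSO, 0.19 ± 0.0791 (adjusted p = 0.0551), a value just outside the threshold that passed under RLE scaling (adjusted p = 0.0469), a stricter filter (0.0277), all 24 libraries in a fit (0.0305) and the compared groups alone (0.0293). The groups did not overlap in either setting. ANXA7 in SU-DHL-4 fell with -0.29 ± 0.0702 with CART19 cells (adjusted p = 0.000937) and -0.23 ± 0.0708 with UTD cells (adjusted p = 0.0096). ANXA11 in SU-DHL-4 fell with -0.26 ± 0.0604 with CART19 cells (adjusted p = 0.000568) and -0.20 ± 0.06 with UTD cells (adjusted p = 0.00794). Both calls with UTD cells depended on the scaling: under upper quartile scaling ANXA7 was at -0.15 (adjusted p = 0.0988), ANXA11 at -0.12 (adjusted p = 0.135) and ANXA5 at 0.27 (adjusted p = 0.0061). The ANXA7 and ANXA11 calls each rested on a library too, since ANXA7 reached an adjusted p of 0.0554 without replicate 3 of DMSO with UTD cells, and ANXA11 0.0832 without replicate 3 of tazemetostat with UTD cells.

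In OCI-Ly18 tazemetostat called fewer members. With CART19 cells 2 rose and 2 fell of the 9 tested, where 21.6% of all genes were called: ANXA6 and ANXA4 rose, and S100A11 and ANXA2 fell. ANXA2 was at -0.18 ± 0.0626 (adjusted p = 0.0426), a call lost in 9 of 12 fits that left out a library (adjusted p from 0.0448 to 0.128). With UTD cells 1 rose, ANXA6, and 1 fell, S100A11, of the 9, where 24.3% of all genes were called. The remaining members lay between -0.17 for ANXA7 and 1.28 for S100A4 with UTD cells. ANXA11 was at 0.17 ± 0.0671 with UTD cells (adjusted p = 0.0712), the opposite sign to SU-DHL-4, and the line difference of its response was -0.34 ± 0.0932 (adjusted p = 0.0106).

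Between the lines, the response to tazemetostat with UTD cells differed for 4 of the 9 members tested, where 10.6% of all genes were called. ANXA4 was called with a larger response in SU-DHL-4 and ANXA6 and ANXA11 with a lower one. ANXA2 was the other call, but it rested on 6 counts with tazemetostat, against 0 with DMSO, in SU-DHL-4. S100A10 and S100A11 held 0 to 4 counts in each of these SU-DHL-4 groups, too few to show a difference between the lines.

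With CART19 cells 1 member was called in each line. In SU-DHL-4, S100A4 was the 1 member called of 6 tested, lower both under tazemetostat and under DMSO, where 14.5% and 7.79% of all genes were called. The largest change among the other 5 was that of ANXA4, at 0.45 ± 0.253 under tazemetostat (adjusted p = 0.267) and -0.31 ± 0.381 under DMSO (adjusted p = 0.755). In OCI-Ly18, S100A11 was the 1 member called of 9 tested, higher both under tazemetostat and under DMSO, where 13.4% and 11% of all genes were called. ANXA2 there was at 0.14 ± 0.0631 under tazemetostat (adjusted p = 0.164) and 0.17 ± 0.0629 under DMSO (adjusted p = 0.0727), and ANXA11 at -0.18 ± 0.0668 (adjusted p = 0.064) and -0.12 ± 0.0676 (adjusted p = 0.33). The 2 drug settings share no library, while each CART19 comparison shares libraries with the tazemetostat comparisons of its line.

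No member had a called interaction between tazemetostat and CART19 cells by edgeR. In SU-DHL-4 the count was 0 of 6, where 0.895% of all genes were called, with 1 member at an unadjusted p under 0.05, ANXA5 at 0.27 ± 0.112 (adjusted p = 0.302), and 0 called by DESeq2. In OCI-Ly18 it was 0 of 9, where 0.419% of all genes were called, with 0 at an unadjusted p under 0.05 and 0 called by DESeq2. The lines' responses to CART19 cells under DMSO differed for 0 of 9 members by edgeR, where 2.83% of all genes were called, with 0 at an unadjusted p under 0.05 and 0 called by DESeq2. ANXA2, S100A10 and S100A11 held 0 to 2 counts over the 3 libraries of each of these SU-DHL-4 groups. That is too few to show whether their responses differ between the lines.

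**Figure D5:**
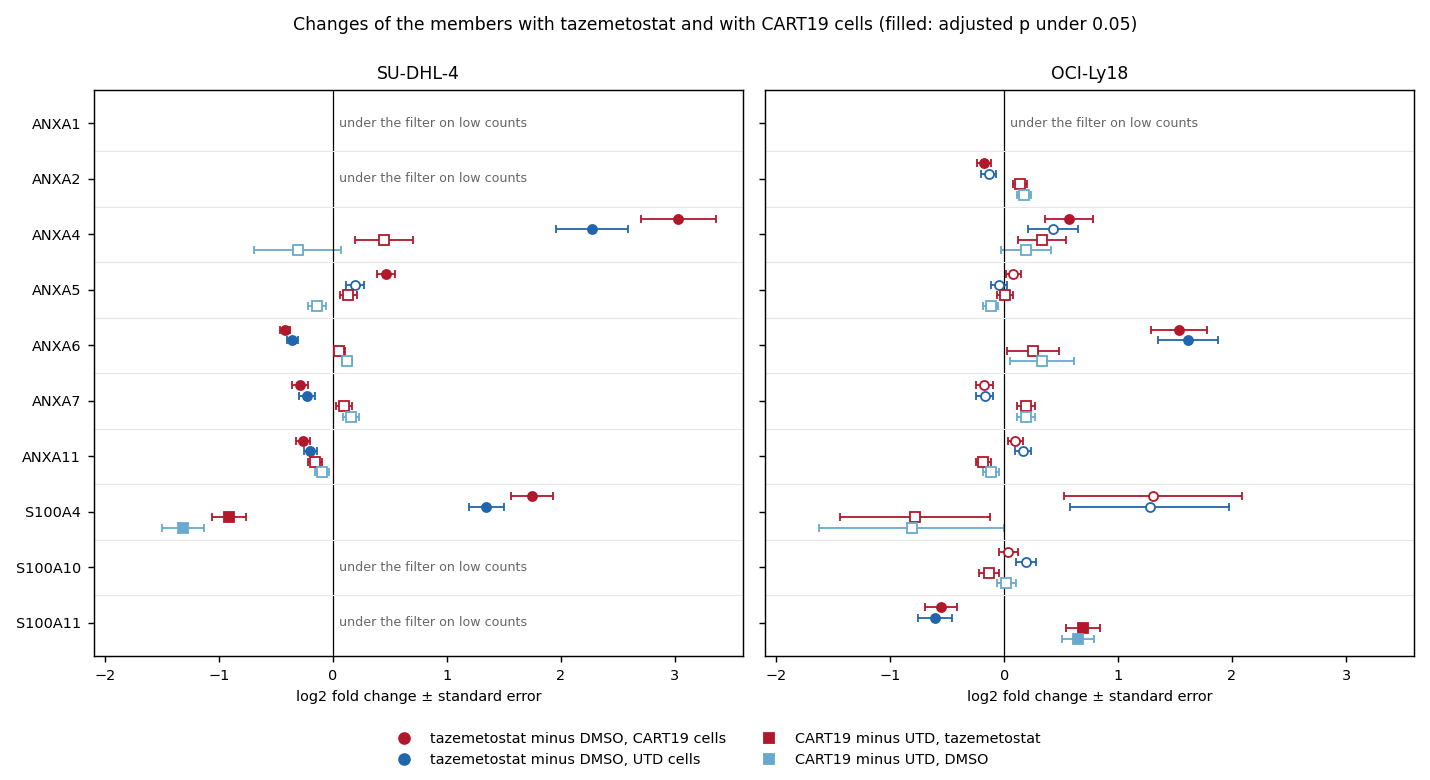
Log2 fold change with its standard error for each member tested, in SU-DHL-4 (left) and OCI-Ly18 (right), for tazemetostat minus DMSO (circles) and CART19 minus UTD cells (squares). Filled symbols have an adjusted p under 0.05: ANXA4 reaches 3.03 in SU-DHL-4, ANXA6 lies below 0 in SU-DHL-4 and at 1.53 and 1.62 in OCI-Ly18, and S100A4 lies on opposite sides of 0 for the drug and the CART19 cells in SU-DHL-4.

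The rest of both families was mostly silent. Of 25 further genes listed by their annexin or S100 name, 11 had 0 counts in all libraries, 8 had 1 to 20 counts and 6 had more. The 6 include S100PBP, which encodes a protein that binds S100P and is no S100 gene itself. The myeloid S100A8 and S100A9 were among those at 0. Of the other annexins 1 of 6 was tested in each line, ANXA9, and it was not called in any drug or CART19 comparison. Of the 19 listed under the S100 name 4 were tested in SU-DHL-4, S100PBP among them, and 2 rose and 0 fell with tazemetostat both with CART19 and with UTD cells. The median log2 fold change of these 4 was 0.67 and 0.85, with S100PBP itself at 0.10 and -0.05 and not called. Of all genes 34.8% and 35.5% were called there in either direction, with a median log2 fold change of 0.00 and 0.01. S100A13, an S100 protein of stress-induced secretion, was at 1.26 ± 0.353 with CART19 cells (adjusted p = 0.00396) and 1.49 ± 0.392 with UTD cells (adjusted p = 0.00184). S100A1, known from heart muscle, was at 1.58 ± 0.49 with UTD cells (adjusted p = 0.00829), and S100Z at 0.36 ± 0.13 with CART19 cells (adjusted p = 0.0244). S100A13 and S100A1 were low: with UTD cells S100A13 averaged 2.28 CPM under tazemetostat and 0.766 CPM under DMSO, and S100A1 1.86 and 0.591 CPM. S100A1 and S100A13 overlap on the chromosome, so their reads may be mixed. In OCI-Ly18 5 of the 19 were tested, again with S100PBP, and 1 rose with tazemetostat and UTD cells, S100A6, at 1.54 ± 0.543 (adjusted p = 0.032). S100A6 was low too, at 1.41 CPM under tazemetostat and 0.462 CPM under DMSO. Its lowest coordinate lies 9.0 kb from that of S100A4. With CART19 cells 0 were called by edgeR.

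Known binding partners and substrates were listed as 20 genes, of which 11 were tested in SU-DHL-4 and 14 in OCI-Ly18. In SU-DHL-4 3 rose and 3 fell with tazemetostat with CART19 cells, and 2 rose and 3 fell with UTD cells, where 34.8% and 35.5% of all genes were called. AHNAK, a large scaffold that binds the ANXA2 and S100A10 complex, rose with 1.43 ± 0.429 (adjusted p = 0.00697) and 1.79 ± 0.469 (adjusted p = 0.00167) in those settings, in a line without detectable ANXA2 and S100A10 at baseline. AHNAK was low, at 2.55 CPM under tazemetostat and 0.921 CPM under DMSO with CART19 cells, and at 2.04 and 0.55 CPM with UTD cells. GSN, the actin-severing gelsolin, rose with 1.02 ± 0.178 (adjusted p = 9.23e-06) and 1.13 ± 0.184 (adjusted p = 2.59e-06). MYH9, the heavy chain of the myosin that S100A4 binds, fell with -0.32 ± 0.0435 with CART19 cells (adjusted p = 9.32e-08) and -0.11 ± 0.0435 with UTD cells (adjusted p = 0.0367). It fell in OCI-Ly18 too, with -0.25 ± 0.0429 with CART19 cells (adjusted p = 5.29e-05) and -0.21 ± 0.043 with UTD cells (adjusted p = 0.000383). In OCI-Ly18 3 rose and 4 fell in each setting, where 21.6% and 24.3% of all genes were called, with GSN at 1.19 ± 0.262 (adjusted p = 0.00101) with CART19 cells and 1.33 ± 0.261 (adjusted p = 0.00023) with UTD cells. There the calcium-activated protease subunit CAPN2 rose with 1.53 ± 0.268 (adjusted p = 5.94e-05) and 1.61 ± 0.272 (adjusted p = 3.36e-05), and SRI, the ANXA7 partner sorcin, fell with -0.42 ± 0.0884 (adjusted p = 0.00069) and -0.42 ± 0.0893 (adjusted p = 0.000574). With CART19 cells 2 rose and 0 fell of the 14 in OCI-Ly18 under each drug. Of all genes 13.4% were called there under tazemetostat and 11% under DMSO. In SU-DHL-4 1 rose and 1 fell of the 11 under tazemetostat, where 14.5% of all genes were called. Under DMSO 0 rose and 0 fell there, where 7.79% of all genes were called.

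Of the 8 listed receptors, 3 were tested in SU-DHL-4 and 4 in OCI-Ly18. With tazemetostat 1 of the 3 was called in each setting of SU-DHL-4. Of all genes 34.8% were called there with CART19 cells and 35.5% with UTD cells. With CART19 cells 1 of the 3 was called under each drug, beside 14.5% of all genes under tazemetostat and 7.79% under DMSO. TLR4, a receptor of secreted S100 proteins, rose with tazemetostat in SU-DHL-4 with 1.29 ± 0.162 with CART19 cells (adjusted p = 1.18e-08) and 1.2 ± 0.158 with UTD cells (adjusted p = 3.4e-08). ANXA2R, named for binding the ANXA2 complex, rose with CART19 cells in SU-DHL-4, with 1.51 ± 0.206 under tazemetostat (adjusted p = 1.91e-07) and 1.66 ± 0.204 under DMSO (adjusted p = 1.58e-08). It averaged 9.79 and 11.1 CPM in those CART19 groups, against 3.5 and 3.51 CPM in the matching UTD groups. In OCI-Ly18 the only receptor called was TLR2, 1 of 4 tested. It was at -0.66 ± 0.179 for tazemetostat with UTD cells (adjusted p = 0.00607), where 24.3% of all genes were called.

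Genes that move or sense phosphatidylserine, the lipid annexins bind, were listed as 22, of which 13 were tested in SU-DHL-4 and 17 in OCI-Ly18. With tazemetostat in SU-DHL-4 4 rose and 2 fell with CART19 cells, and 8 rose and 2 fell with UTD cells, with a median log2 fold change of 0.07 and 0.40, where 34.8% and 35.5% of all genes were called. The lipid flippase ATP8B2 rose with 1.72 ± 0.169 (adjusted p = 2.19e-11) and 1.83 ± 0.157 (adjusted p = 5.18e-13), and the receptor kinase TYRO3 with 1.55 ± 0.233 (adjusted p = 5.03e-07) and 0.97 ± 0.215 (adjusted p = 0.000353). In OCI-Ly18 3 rose and 1 fell with CART19 cells, and 3 rose and 3 fell with UTD cells, with a median of 0.18 and -0.01, where 21.6% and 24.3% of all genes were called. The flippase ATP11A rose there in both settings, with 0.30 ± 0.0614 (adjusted p = 0.000492) and 0.44 ± 0.0612 (adjusted p = 2.24e-06).

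For the 3 members that varied most within the lines, the genes of the most similar pattern were sought among 9452 protein coding genes of at least 5 CPM, as Pearson's r of log2 CPM over the 24 libraries after centring each line. These libraries share the treatments and their depth, and the values are a description. ANXA4 was closest to ID1 with 0.956, YPEL2 with 0.931 and PDLIM1 with 0.928. S100A4 was closest to VPS37B with 0.9, TMTC4 with 0.853 and SNX29 with 0.848. ANXA6 was closest to MAP4K4 with 0.957, NME4 with 0.918 and LYN with 0.915.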

How the data were processed

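Total RNA of sorted lymphoma cells was sequenced as 24 libraries, per the labels. The values are whole-number counts per gene, deposited by the authors without scaling. Per the submitters' processing notes, the build hg38 and the tool DESeq2 are named, with no version or role. Which aligner and counter were used, and whether strand was counted, is not given in the sources used here. Of 58735 gene IDs, 58724 matched GENCODE 29 in start and end, and 27 names that had become dates were restored. Unused columns of per-sample values numbered 0.

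The members and gene lists were chosen with earlier results of these data known. The test was edgeR's (version 4.0.16, under R 4.3.3): TMM scaling, filterByExpr by group (minimum count 10), robust quasi-likelihood fit and F-test, and Benjamini-Hochberg adjustment over all genes of a comparison. Each line was fitted alone (12 libraries, 8 residual degrees of freedom), and line differences in a joint fit of 24 libraries (16 degrees of freedom). A standard error is that of the model coefficient. CPM uses library totals of 14783781 to 20148891, and CPM per kb the deposited gene length, which equals the union of GENCODE 29 exons for all 10 members. Genes outside the members were named from the lists, up to 4 per list and comparison by absolute change among those called, or as neighbours, overlapping genes or closest patterns. The scripts were tested on simulated data. Replicates were checked for duplication: over 24 pairs, the chi-square over its degrees of freedom was 2.77 to 14.8 for genes of at least 20 counts. Alternatives were other scalings (RLE, upper quartile), filters, DESeq2 1.42.0, a replicate block, other sets of libraries in the fit, and leaving out each library.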

Additional observations from a re-analysis of the deposited data

Results flagged for a closer look

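Within the members, 4 differed between the lines in their response to tazemetostat with UTD cells, by a test of the difference itself in edgeR's joint fit, where 10.6% of all genes were called. ANXA4 responded more in SU-DHL-4, by 1.86 ± 0.402 on the log2 scale (adjusted p = 0.000752). ANXA6 fell in SU-DHL-4 and rose in OCI-Ly18, a difference of -1.95 ± 0.173 (adjusted p = 1.79e-12). ANXA11 differed by -0.34 ± 0.0932 (adjusted p = 0.0106), and by an adjusted p of 0.0558 without replicate 3 of tazemetostat with UTD cells of SU-DHL-4. ANXA2 had a fitted difference of 4.26 (adjusted p = 0.044), which is no measured fold because SU-DHL-4 held 6 counts with tazemetostat, against 0 with DMSO. The ANXA2 call was lost without a filter on low counts, under DESeq2, with a replicate block and in 14 of 24 fits that left out a library.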

How the results depend on the processing

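No member's called change reversed under any alternative. Of the 1548 member results with a library left out, 1496 kept their side of the threshold with the same direction or changed sign only while uncalled, 36 lost a call and 16 gained one. For tazemetostat with CART19 cells in OCI-Ly18, the 4 called members became 2 without a filter on low counts, with a replicate block, with all 24 libraries in a fit and with the compared groups alone, and 2 to 3 with a library left out. For CART19 cells under tazemetostat in OCI-Ly18, the 1 member became 2 under RLE scaling, upper quartile scaling and a stricter filter, and 1 to 4 with a library left out. For CART19 cells under DMSO in OCI-Ly18 it became 3 with the compared groups alone and 1 to 2 with a library left out. With a library left out, the count was 1 to 2 for CART19 cells in SU-DHL-4 under each drug, 4 to 6 (5 in full) and 6 for tazemetostat with UTD and CART19 cells in SU-DHL-4, 2 to 3 (2 in full) in OCI-Ly18 for the drug with UTD cells, and 2 to 4 (4 in full) for the line difference of the tazemetostat response. The causes were not tested. Replicate numbers from the deposited sample sheet did not pair the libraries: over 36 same-numbered pairs r was -0.06 to 0.043, with 0 above 0.1, and a replicate block lost 3 calls among 102 member results (ANXA2 and ANXA4 for tazemetostat with CART19 cells in OCI-Ly18, adjusted p = 0.0654 and 0.076, and the line difference of ANXA2, adjusted p = 0.0517) and gained 1, ANXA5 for tazemetostat with UTD cells in SU-DHL-4 (0.19, adjusted p = 0.0443). Depth limits ANXA1, S100A4 in OCI-Ly18, and ANXA2, S100A10 and S100A11 in SU-DHL-4.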
